A study of Homo sapiens with 9 samples.

Results

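The genes described here encode the machinery that copies DNA and the enzymes that supply its building blocks, in OCI-Ly1, an established human cell line from diffuse large B-cell lymphoma. The list holds 49 genes named by symbol, and it was chosen with earlier results of these data known. All 49 were found among the 25370 gene symbols of the deposited count table, and all 49 were among the 15089 genes that passed the filter on low counts. They were sorted into 7 roles: origin licensing (8 genes), helicase (14), polymerase (9), clamp and clamp loader (6), Okazaki fragment processing and single-stranded DNA binding (5), nucleotide supply (5) and chromatin assembly (2). There were 3 treatments, all of 48 h: DMSO (vehicle), JIB-04 at 150 nM and JIB-04 at 500 nM. Each was represented by 3 libraries of total RNA prepared with ribosomal RNA depletion. The compound JIB-04 inhibits histone demethylases of the Jumonji type, to which KDM4A and KDM4C belong. No allele or transgene is named in the labels of any group, and all 9 libraries come from this 1 cell line. Whether the 3 libraries of a treatment stem from separate cultures is not in the labels. P-values therefore measure only library-to-library spread, which may be technical.

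Replication starts at origins, where the origin recognition complex with CDC6 and CDT1 loads a ring of MCM2 to MCM7 in G1. In S phase the kinase CDC7 with its activator DBF4 helps to turn that ring, with CDC45 and the GINS complex, into the active helicase. DNA polymerases alpha, delta and epsilon then copy the strands, RFC loads the sliding clamp PCNA, FEN1 and LIG1 finish the lagging strand, and ribonucleotide reductase (RRM1 with RRM2) makes deoxynucleotides. Many of these genes are classical targets of E2F transcription factors, and their RNA levels are highest around S phase. In bulk RNA, fewer cells in S phase and less RNA per cell cannot be told apart.

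Libraries held 28476845 to 57198613 counts. Those of a group correlated at r = 0.987 to 0.993 on the log scale across genes, and DMSO replicate 2, the shallowest, stood apart on the second principal component (-42.4, against -5.42 to 14.3 in the others). All 6 B-cell markers and 4 of 5 germinal-centre B-cell markers were above 1 CPM in every library (CPM are read counts scaled to a common library size, with TMM factors). The other germinal-centre marker, LMO2, was at 0 to 0.0464 CPM in DMSO, 0 to 0.234 at 150 nM and 0.355 to 1.69 at 500 nM. The sums of the 2 lists were 1474 to 1534 and 714 to 747 CPM in DMSO, and 1243 to 1299.8 and 598 to 625 CPM at 500 nM. Among other cell types, CD3D and CD3G of 5 T-cell markers exceeded 1 CPM in every library and CD2 in 1 DMSO library, with sums of 18.7 to 21.4 CPM in DMSO, 14.2 to 16.9 at 150 nM and 7.80 to 8.44 at 500 nM. The sums of 5 monocyte, 5 epithelial and 5 fibroblast markers reached at most 2.86, 6.31 and 0.464 CPM in any library, nearly all of the epithelial sum being EPCAM, and ITGAM, CD163, CDH1 and KRT19 were at 0 CPM in every DMSO library. The part of these marker differences in the results was not tested.

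Promoter windows of 300 bases, 250 before and 50 after the gene start, were available from RefSeq (GRCh38.p14) for 43 of the 49 genes. The 8-letter E2F site was searched on both strands in 4 forms, TTTCCCGC, TTTCGCGC, TTTGCCGC and TTTGGCGC. It stood in 18 of the 43 windows (41.9%), against 3.33% of 27305 windows of all genes and 5.11% of those of tested genes. The CCAAT box, the letters read by the factor NF-Y, stood in 23 of 43 (53.5%) against 35.7% of all windows and 36.6% of those of tested genes. The MYC-type E-box CACGTG stood in 6 (13.95%) against 7.44% and 10%, and the CHR element TTTGAA, known from promoters of mitotic genes, in 2 (4.65%) against 15.4% and 10.3%. The windows below belong to 3 pairs of genes whose products work in the same complex, and in each pair 1 gene rose and the other fell at 500 nM. They are the largest called rise and fall within the helicase, polymerase and clamp loader roles. Each is printed 5′ to 3′ on the gene's strand, from 250 bases before to 30 after the start, in lower case, with E2F and CCAAT letters of either strand in capitals.
CDC45, chr22:19479670-19479949, plus strand: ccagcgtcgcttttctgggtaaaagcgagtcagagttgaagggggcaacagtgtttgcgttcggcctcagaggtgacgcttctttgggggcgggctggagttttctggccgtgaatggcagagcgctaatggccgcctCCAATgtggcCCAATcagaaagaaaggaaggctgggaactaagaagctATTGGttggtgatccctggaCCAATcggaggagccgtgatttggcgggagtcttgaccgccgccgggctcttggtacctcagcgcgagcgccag
GINS1, chr20:25407423-25407702, plus strand: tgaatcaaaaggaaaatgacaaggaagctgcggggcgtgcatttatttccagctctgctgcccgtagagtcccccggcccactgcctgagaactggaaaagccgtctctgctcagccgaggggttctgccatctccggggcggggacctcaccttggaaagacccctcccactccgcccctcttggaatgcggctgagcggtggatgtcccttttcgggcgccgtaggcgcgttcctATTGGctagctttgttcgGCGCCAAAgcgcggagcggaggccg
POLE, chr12:132687313-132687592, minus strand: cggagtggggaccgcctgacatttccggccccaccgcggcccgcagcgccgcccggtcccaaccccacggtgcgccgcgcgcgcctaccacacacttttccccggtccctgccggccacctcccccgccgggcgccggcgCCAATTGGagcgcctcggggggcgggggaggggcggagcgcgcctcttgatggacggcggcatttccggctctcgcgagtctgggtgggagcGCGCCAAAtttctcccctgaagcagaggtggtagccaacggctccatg
POLE2, chr14:49688185-49688464, minus strand: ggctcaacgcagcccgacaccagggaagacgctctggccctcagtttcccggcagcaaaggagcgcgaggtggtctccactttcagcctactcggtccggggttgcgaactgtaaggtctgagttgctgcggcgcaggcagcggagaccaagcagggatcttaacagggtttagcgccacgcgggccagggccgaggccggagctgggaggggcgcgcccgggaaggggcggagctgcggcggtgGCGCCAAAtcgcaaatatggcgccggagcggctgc
RFC1, chr4:39366333-39366612, minus strand: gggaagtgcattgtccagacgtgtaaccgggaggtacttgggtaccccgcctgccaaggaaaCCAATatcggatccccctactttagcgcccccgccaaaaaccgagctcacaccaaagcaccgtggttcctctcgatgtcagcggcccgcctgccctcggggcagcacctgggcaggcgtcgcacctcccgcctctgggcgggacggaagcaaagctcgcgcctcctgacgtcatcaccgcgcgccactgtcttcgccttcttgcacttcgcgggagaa
RFC3, chr13:33817899-33818178, plus strand: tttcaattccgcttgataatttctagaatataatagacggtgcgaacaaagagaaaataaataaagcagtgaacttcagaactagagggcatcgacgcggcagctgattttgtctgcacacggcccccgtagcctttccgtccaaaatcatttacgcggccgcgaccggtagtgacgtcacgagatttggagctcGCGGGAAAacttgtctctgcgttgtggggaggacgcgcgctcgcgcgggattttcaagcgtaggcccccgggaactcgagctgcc
In each of these pairs the member that fell carried an E2F match (GINS1, POLE2 and RFC3). Of the members that rose, POLE carried 1 as well. In origin licensing and nucleotide supply, whose windows are not printed, the largest called falls, GMNN and RRM1, had no E2F match. ORC3, the called rise in origin licensing, had 1. The pattern of the printed falls therefore does not extend to those of GMNN and RRM1. CDC45 held 4 CCAAT matches, on both strands, and the 2 in POLE overlap each other (CCAATTGG). Of the 18 genes with an E2F match, 3 rose and 5 fell at 500 nM, and of the 25 without a match 4 rose and 10 fell, where 52% of all tested genes were called. Their median log2 fold changes were 0.06 and -0.10. A match is a description of letters in the window and does not show a bound site. Only exact copies of the 4 E2F forms were counted. A window without a match, such as that of CDC45, may still hold a similar sequence.

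Levels between genes were compared per kilobase of the longest transcript, since longer transcripts collect more reads. On that scale MCM7 was the highest of the 49 in DMSO, at 397 ± 15.5 CPM per kilobase (SD, n = 3), followed by the sliding clamp PCNA at 321 ± 33.5. These 2 lay apart by more than both SDs together. MCM3 (191 ± 7.73), RRM1 (183 ± 6.85), MCM4 (173 ± 1.91) and POLD2, a small subunit of polymerase delta (159 ± 5.46), came next, with overlapping SDs for the first 2. The MCM ring subunits spanned 86.2 (MCM2) to 397 CPM per kilobase. At the low end were GINS4 (19.0 ± 0.808), CDT1 (18.05 ± 1.14), GINS3 (17.9 ± 0.544) and CHAF1B, a chromatin assembly subunit (15.3 ± 0.384), of which the first 3 had overlapping SDs. TYMS, the thymidylate synthase gene, was the lowest at 5.13 ± 0.356. In GENCODE 29, 46.6% of TYMS exon bases are shared with genes on the opposite strand, mainly ENOSF1. No other of the 49 genes shared more than 10%. No source used here gives the strand setting of the counting, so reads of TYMS and ENOSF1 may have been dropped or exchanged and the TYMS level is uncertain.

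**Figure D1:**
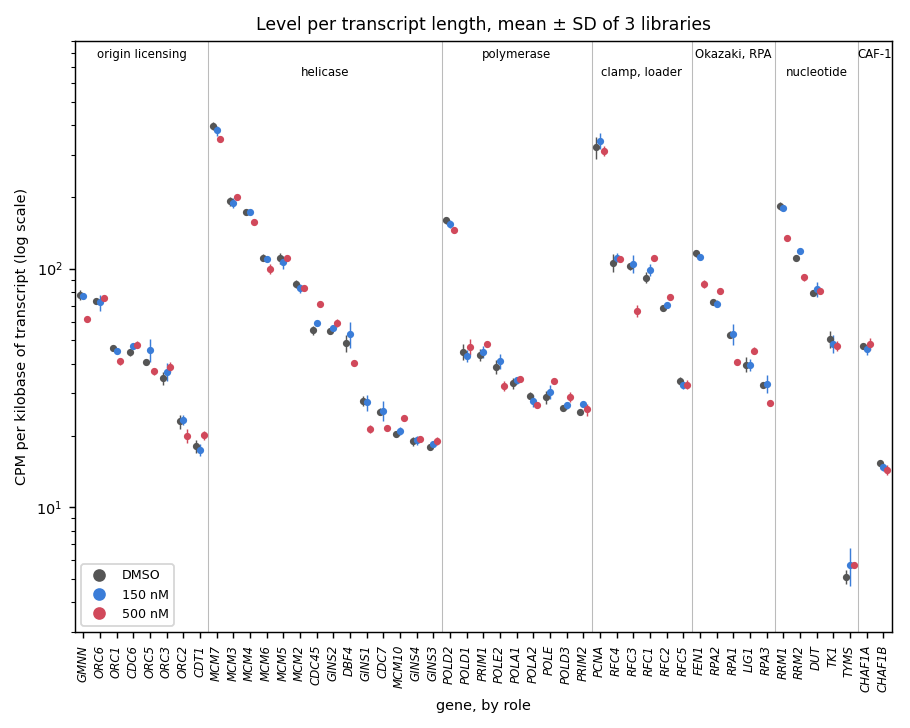
Level of each gene per kilobase of its longest transcript (CPM per kilobase, log axis), by role, as the mean of 3 libraries with SD bars in DMSO (grey), 150 nM (blue) and 500 nM JIB-04 (red). MCM7 and PCNA stood highest and TYMS lowest, and the 3 groups lay close together for most genes.

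The comparison of 500 nM with DMSO asked which replication genes had changed at the higher dose. Of the 49 genes, 9 rose and 17 fell, and none changed by 2-fold. The largest fall was that of RFC3, a small subunit of the clamp loader (log2 fold change -0.62 ± 0.06, SE, n = 3 per group), and the largest rise that of CDC45 (0.36 ± 0.05). RRM1, FEN1, GINS1, RPA1, GMNN and RRM2 also fell, and RFC1, MCM10 and POLE also rose. The members moved in both directions within every role that had at least 5 genes, apart from nucleotide supply, where 2 fell and none rose. The 26 called genes were 53.1% of the list, while edgeR called 52% of all tested genes, 26.3% higher and 25.6% lower. A share so near the background is no result about the list. For 32 of the 49 (65.3%), the DMSO and 500 nM ranges were disjoint, against 59.2% of all tested genes. The median log2 fold change was 0.01 over the list and 0.01 over all tested genes.

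**Figure D2:**
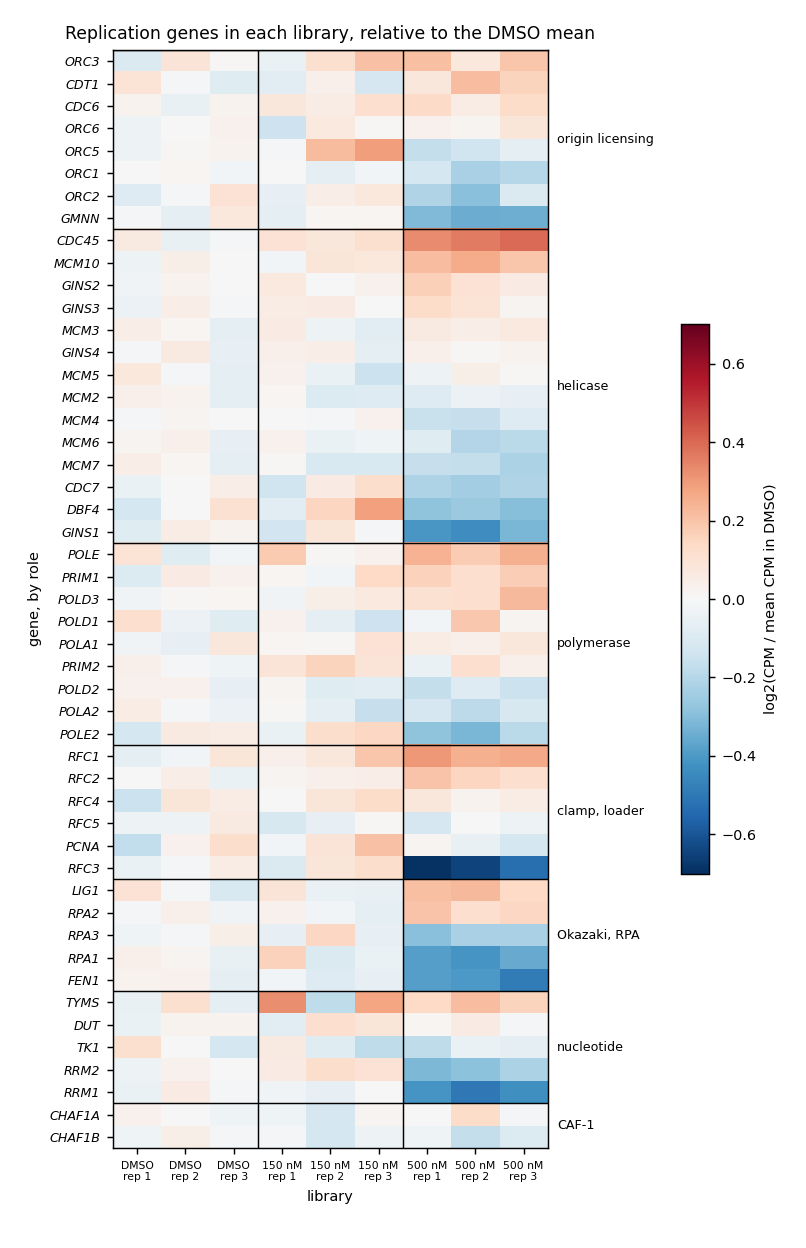
Level of each of the 49 genes in each of the 9 libraries, as log2 of its CPM over the mean CPM in DMSO, with genes ordered within roles by their change at 500 nM. The DMSO and 150 nM columns are pale, and at 500 nM rising and falling genes stand side by side within roles, with RFC3 the darkest fall.

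The direction of small changes depended on the scaling. With libraries scaled by total counts only, the median over all tested genes moved from 0.01 to 0.15 on the log2 scale, and 25 of the 49 rose and 7 fell. Over all tested genes, 5716 then rose and 2514 fell. The share of these calls that were rises went from 50.7% to 69.5%. Relative to the median of all genes, 24 of the 49 lay above and 25 below under both scalings. The 7 that fell under total counts were GMNN, GINS1, RFC3, FEN1, RPA1, RRM1 and RRM2. These 7 and the rises of CDC45, RFC1, MCM10 and POLE, 11 calls in all, kept their direction and stayed called in each of 21 alternatives. Without DMSO replicate 3, 5 genes rose and 17 fell, and without 500 nM replicate 1, 6 rose and 16 fell. Over all genes, 7388 and 7053 were then called in either direction. Libraries at 500 nM also leaned towards GC-rich genes. Their level rose by 0.0744 to 0.125 log2 per 10 percentage points of transcript GC, against -0.0960 to 0.0236 in DMSO and -0.117 to 0.0379 at 150 nM. With each library's GC trend removed, 14 of the 49 rose and 21 fell, against 4266 and 4322 of the 15089 tested genes. Across the 49 genes, transcript GC content (39.1% to 65.0%) and the change at 500 nM had a Pearson r of 0.22 and a Spearman rho of 0.20, both across genes that share the same libraries.

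Origin licensing genes split at 500 nM, with 3 of 8 lower and 1 higher, where 25.6% of all tested genes were lower and 26.3% higher. GMNN, which encodes geminin, the inhibitor of CDT1, was at 97.04, 93.7 and 103 CPM in DMSO, at 93.4, 98.9 and 98.7 at 150 nM, and at 79.1, 76.8 and 77.4 at 500 nM. All 3 libraries at 500 nM lay below the other 6, and the fall was -0.33 ± 0.06 (adjusted p = 2.65e-05). CDT1, the licensing factor that geminin binds, was at 62.5, 57.8 and 55.1 CPM in DMSO and at 61.8, 67.9 and 65.1 at 500 nM. These groups overlapped, and CDT1 was not called (0.15 ± 0.07, adjusted p = 0.0679), though 6 alternatives called it higher (adjusted p = 0.000947 to 0.0498). With GC trends removed its difference turned to -0.05 (adjusted p = 0.494). The ratio of CDT1 to GMNN counts was 0.536 to 0.644 in DMSO, 0.546 to 0.606 at 150 nM and 0.781 to 0.884 at 500 nM, so that the 500 nM libraries lay above all others. CDT1 transcripts are 64.9% GC and those of GMNN 43.6%, and the 500 nM libraries leaned towards GC-rich genes. The part of that lean in the ratio was not tested, and no test of the ratio was made.

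CDC6, the ATPase that brings MCM to origins, was at 219, 207 and 219 CPM in DMSO, 227, 223 and 233 at 150 nM, and 235, 223 and 235 at 500 nM. Both doses lay above DMSO without overlap, and neither difference was called (0.08 ± 0.05, adjusted p = 0.61, and 0.11 ± 0.05, adjusted p = 0.076). Among the subunits of the origin recognition complex, ORC1 fell (-0.18 ± 0.05, adjusted p = 0.00476) and so did ORC2 (-0.20 ± 0.06, adjusted p = 0.0106). ORC3 rose by 0.16 ± 0.07 (adjusted p = 0.0454), from 81.3, 92.8 and 87.8 CPM in DMSO to 101, 92.0 and 99.7 at 500 nM. These ranges overlapped, and the ORC3 call ended when any of 5 libraries was left out (DMSO replicates 1 and 3, 150 nM replicate 2, 500 nM replicates 1 and 3). ORC1 and ORC2 were not called with total counts (adjusted p = 0.5 and 0.439), nor ORC2 without DMSO replicate 3 or 500 nM replicate 2. ORC5 (-0.12 ± 0.07) and ORC6 (0.05 ± 0.06) were not called. ORC4 is not among the 49 and belongs to the list of 38 further genes described below. It was at 163, 167 and 173 CPM in DMSO, 159, 165 and 162 at 150 nM, and 121, 123 and 126 at 500 nM. All its libraries at 500 nM lay below the others.

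Helicase genes had 2 of 14 higher and 6 lower at 500 nM, against 26.3% and 25.6% of all tested genes. CDC45, the helicase subunit that joins when origins fire, was at 120.4, 111 and 114 CPM in DMSO, 124, 122 and 124 at 150 nM, and 145, 148 and 152 at 500 nM. Its groups did not overlap at any pair of doses, and the rise at 500 nM was 0.36 ± 0.05 (adjusted p = 1.91e-06). GINS1, a subunit of the GINS complex that binds the same helicase, was at 85.5, 94.0 and 92.2 CPM in DMSO, 82.4, 96.1 and 90.1 at 150 nM, and 68.3, 66.9 and 72.6 at 500 nM. It fell by 0.39 on the log2 scale (-0.39 ± 0.07, adjusted p = 1.49e-05), whereas GINS2 (0.11 ± 0.05), GINS3 (0.08 ± 0.07) and GINS4 (0.02 ± 0.06) were not called. The 4 GINS subunits occur together in a single complex, and only GINS1 of the 4 was called under the main analysis.

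In the MCM ring, MCM4 (-0.14 ± 0.04), MCM6 (-0.16 ± 0.05) and MCM7 (-0.18 ± 0.05) fell slightly, with adjusted p = 0.0113, 0.00757 and 0.00178. With total counts none of the 3 was called (adjusted p = 0.935, 0.74 and 0.461), and MCM4 was then at 0.00. MCM4 and MCM6 also lost their calls without 500 nM replicate 2 (adjusted p = 0.0531 and 0.0508). MCM7 was at 1266, 1235 and 1172 CPM in DMSO, 1232, 1137 and 1136 at 150 nM, and 1095, 1092 and 1052 at 500 nM. MCM2 was at 320.0, 317 and 299 CPM in DMSO, 316, 292 and 294 at 150 nM, and 293, 304 and 299.9 at 500 nM, and its groups overlapped (-0.06 ± 0.05, adjusted p = 0.309). MCM3 (0.06 ± 0.05) and MCM5 (0.01 ± 0.05) were not called either. MCM10, which helps to activate the helicase, rose by 0.22 ± 0.06 (adjusted p = 0.00166), from 90.5 to 95.5 CPM over the DMSO libraries to 106 to 111 at 500 nM.

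RNA of both subunits of the kinase that fires origins was lower at 500 nM. CDC7, the catalytic subunit, fell (-0.22 ± 0.07, adjusted p = 0.00553). DBF4, its activator, was at 175, 191 and 205 CPM in DMSO, 179.7, 211 and 232 at 150 nM, and 157, 159 and 155 at 500 nM. The DBF4 libraries at 500 nM lay below the other 6 and close together, and the fall from DMSO was -0.28 ± 0.07 (adjusted p = 0.00193). Neither fall was called with total counts (adjusted p = 0.275 for CDC7 and 0.0817 for DBF4).

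Polymerase genes had 2 of 9 higher and 2 lower at 500 nM, against 26.3% and 25.6% of all tested genes. POLE, the catalytic subunit of the leading-strand polymerase epsilon, was at 243, 214 and 224 CPM in DMSO, 258, 228 and 232 at 150 nM, and 269, 257 and 270.1 at 500 nM. It rose by 0.22 ± 0.06 (adjusted p = 0.00143), and the DMSO and 500 nM libraries did not overlap. POLE2, the second subunit of the same enzyme, was at 64.0, 72.6 and 72.1 CPM in DMSO, 67.5, 75.8 and 76.8 at 150 nM, and 57.2, 55.8 and 61.0 at 500 nM. It fell (-0.26 ± 0.07, adjusted p = 0.00248), a call lost with total counts (adjusted p = 0.138). In polymerase delta, POLD3 rose (0.15 ± 0.06, adjusted p = 0.0273) and POLD2 fell (-0.13 ± 0.05, adjusted p = 0.0229), while POLD2 was at 0.00 and not called with total counts. The catalytic subunit POLD1 was not called (0.06 ± 0.06), but with total counts it was called higher (0.20, adjusted p = 0.00999) and with GC trends removed lower (-0.14, adjusted p = 0.00339).

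Leaving out DMSO replicate 1, DMSO replicate 2 or 500 nM replicate 3 each ended the calls of POLD3 and POLD2, and leaving out 500 nM replicate 1 also ended that of POLD2. Polymerase alpha and primase, which lay down primers, had no called gene at 500 nM. POLA1, the catalytic subunit, was at 178, 174 and 192 CPM in DMSO, 183, 182 and 195 at 150 nM, and 188, 186 and 192 at 500 nM (0.06 ± 0.05, adjusted p = 0.396). The nearest to a call were POLA2 (-0.14 ± 0.06, adjusted p = 0.0537) and PRIM1 (0.15 ± 0.07, adjusted p = 0.0558), which 9 and 10 of the 21 alternatives called in those directions.

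Clamp loader genes moved furthest apart. RFC3 was at 237, 244 and 255 CPM in DMSO, 228, 261 and 267 at 150 nM, and 152, 157 and 170.3 at 500 nM. Every 500 nM library was far below the other 6, and the fall of -0.62 ± 0.06 (adjusted p = 8.7e-10) was the largest of the 49. RFC1, the large subunit that opens the clamp, was at 428, 442 and 474 CPM in DMSO, 459.8, 473 and 513 at 150 nM, and 552, 532 and 538 at 500 nM. It rose by 0.27 ± 0.05 (adjusted p = 5.72e-05). RFC2 rose by 0.16 ± 0.05 (adjusted p = 0.0157), a call lost without DMSO replicate 3 or 500 nM replicate 1. RFC4 (0.05 ± 0.06) and RFC5 (-0.05 ± 0.06) were not called. PCNA itself was at 387, 447 and 477 CPM in DMSO, 431, 465 and 503 at 150 nM, and 442, 422 and 402 at 500 nM. Its groups overlapped, and the difference was not called (-0.05 ± 0.06, adjusted p = 0.541).

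All 5 genes of Okazaki fragment processing and single-stranded DNA binding were called at 500 nM, 3 lower and 2 higher. Of all tested genes, 52% were called, 25.6% lower and 26.3% higher. FEN1, the flap endonuclease, was at 271, 272 and 255 CPM in DMSO, 263, 250.1 and 256 at 150 nM, and 204, 202 and 189 at 500 nM. It fell by -0.42 ± 0.05 on the log2 scale (adjusted p = 5.88e-08). LIG1, the ligase that seals the same fragments, was at 168, 156 and 146 CPM in DMSO, 166, 151 and 151 at 150 nM, and 181, 183 and 172 at 500 nM. It rose by 0.19 ± 0.06 (adjusted p = 0.00669), and without DMSO replicate 3 the adjusted p was 0.0585. The subunits of RPA, which coats single-stranded DNA, also differed. RPA1, the large subunit, was at 235, 233 and 221 CPM in DMSO, 257, 214 and 223 at 150 nM, and 176, 173 and 180.0 at 500 nM, and fell by -0.38 ± 0.06 (adjusted p = 3.03e-06). RPA3 fell (-0.25 ± 0.07) and RPA2 rose (0.15 ± 0.05), with adjusted p = 0.00279 and 0.0171. The RPA3 call was lost with total counts (adjusted p = 0.176) and that of RPA2 without DMSO replicate 3 or 500 nM replicate 1.

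In nucleotide supply, both ribonucleotide reductase subunits fell at 500 nM. RRM1, the large subunit, was at 546, 587 and 559.8 CPM in DMSO, 554, 542 and 566 at 150 nM, and 423, 398 and 419 at 500 nM (-0.45 ± 0.05, adjusted p = 6.01e-09). RRM2, the small subunit made in S phase, was at 399, 418 and 409 CPM in DMSO, 426, 446 and 438 at 150 nM, and 328, 335 and 350.4 at 500 nM (-0.27 ± 0.05, adjusted p = 1.77e-05). The 3 groups did not overlap for RRM2, with 150 nM on top. TK1, thymidine kinase, was at 92.3, 85.2 and 78.4 CPM in DMSO, 89.2, 80.3 and 75.3 at 150 nM, and 75.5, 82.7 and 81.3 at 500 nM. It was not called (-0.10 ± 0.07, adjusted p = 0.254), but with GC trends removed it was called lower (adjusted p = 2.87e-05). DUT, which breaks down dUTP, was not called (0.02 ± 0.06), nor was TYMS (0.17 ± 0.13, adjusted p = 0.27), at 8.15 to 9.20 CPM in DMSO and 9.37 to 9.88 at 500 nM. The chromatin assembly genes CHAF1A (0.04 ± 0.06) and CHAF1B (-0.10 ± 0.06) were not called.

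**Figure D3:**
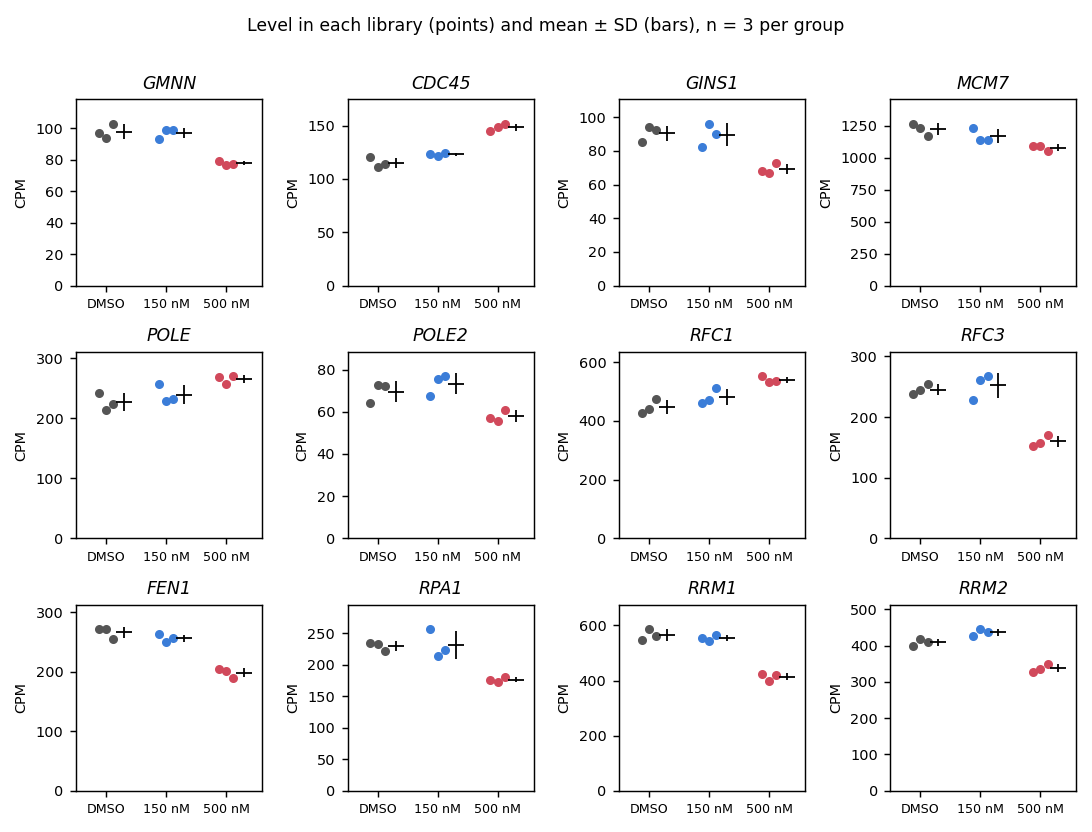
CPM of 12 genes in each library (points) with the mean and SD of each group beside them, for DMSO, 150 nM and 500 nM JIB-04, 3 libraries each. The 500 nM points lie above the DMSO points for CDC45, POLE and RFC1 and below them for the other 9.

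At 150 nM, no replication gene was called against DMSO. By edgeR 0 of 49 passed, where 1.27% of all tested genes were called, 0.954% higher and 0.318% lower. An unadjusted p under 0.05 was found for 2 of the 49 (ORC5 and RFC1), against 1572 of 15089 tested genes. DESeq2 and limma-voom called 0 as well. Log2 fold changes ran from -0.07 to 0.17, with a median of 0.01. Apart from TYMS, the 95% intervals lay between -0.20 and 0.31. Libraries did not overlap for 4 of 49 genes (8.16%), namely CDC6, CDC45, PRIM2 and RRM2, all higher, against 13.7% of all tested genes. Without 150 nM replicate 1, ORC5 and DBF4 were called higher (adjusted p = 0.0107 and 0.0187), and the count over all genes went from 192 to 545. ORC5 was at 78.7, 92.5 and 96.97 CPM at 150 nM and 77.4 to 80.6 in DMSO, so that 1 library lay within the DMSO range and the others above it.

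**Figure D4:**
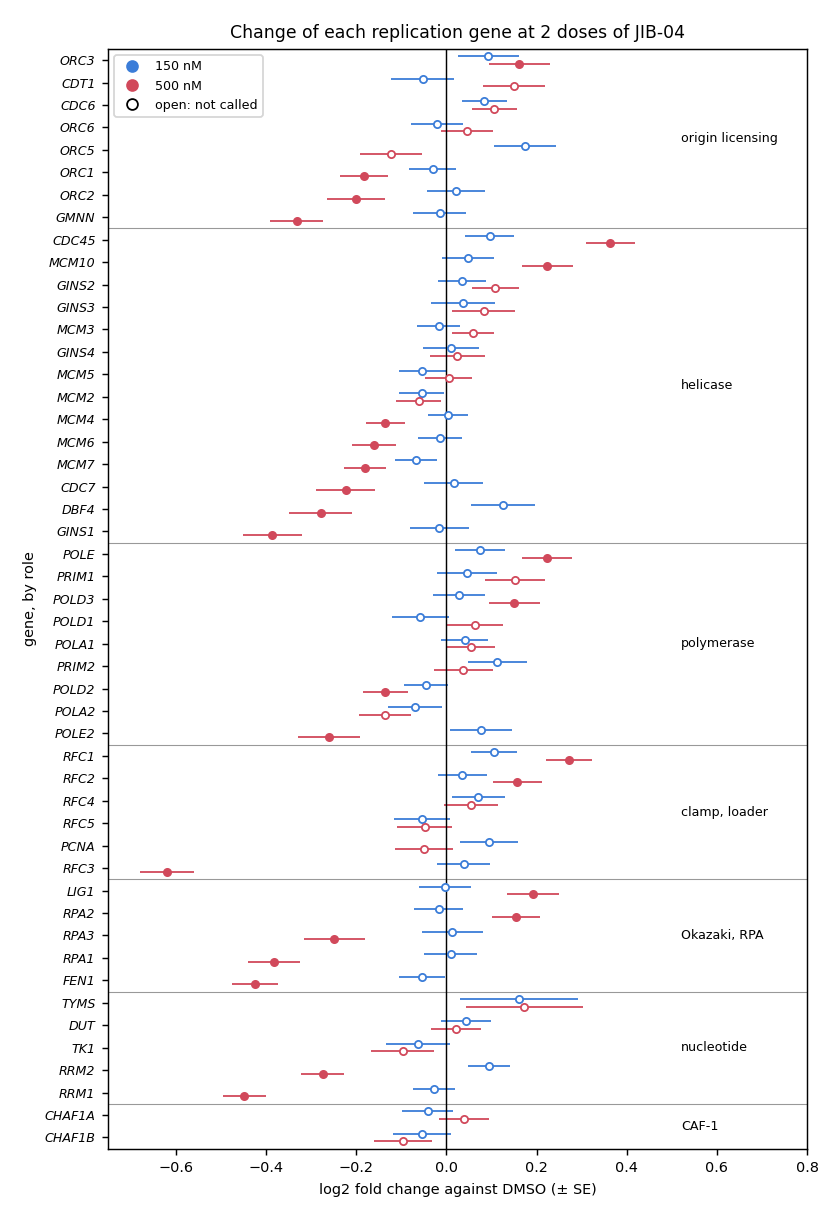
Log2 fold change against DMSO with SE for each gene, by role, at 150 nM (blue) and 500 nM (red). Filled points were called at an adjusted p under 0.05. All 49 points at 150 nM are open, and 26 at 500 nM are filled, 17 of them to the left of 0.

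Between the doses, 7 of the 49 genes were higher and 17 lower at 500 nM than at 150 nM, 48.98% in all against 46.5% of all tested genes. Libraries did not overlap for 26 of the 49 (53.1%), against 55% of all tested genes. This comparison shares its 500 nM libraries with the one against DMSO, so its calls are not independent of those above. The largest difference was again that of RFC3 (-0.66 ± 0.06, adjusted p = 3.98e-10). RRM1 was lower at 500 than at 150 nM (-0.42 ± 0.05, adjusted p = 2.67e-08), DBF4 by -0.40 ± 0.07, RPA1 by -0.39 ± 0.06, RRM2 by -0.37 ± 0.05 and POLE2 by -0.34 ± 0.07. ORC5, not called against DMSO at either dose, was lower at 500 than at 150 nM (-0.30 ± 0.07, adjusted p = 0.000724). CDC45 was higher (0.27 ± 0.05, adjusted p = 0.000156), and so was CDT1 (0.20 ± 0.07, adjusted p = 0.0165). CDT1 lost its call without 150 nM replicate 3 or 500 nM replicate 2, and with GC trends removed it was at -0.01. The count of higher genes fell to 4 without 150 nM replicate 2 or replicate 3, where 6062 and 6295 genes were called in either direction over all genes. With total counts 20 genes were higher and 10 lower, with the median over all tested genes at 0.13 in place of 0.01. Over all tested genes, 5257 were then higher and 2137 lower.

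Other genes of the pathway were taken from a list of 38 that holds further fork, checkpoint and nucleotide genes. At 500 nM 4 of them rose and 9 fell (34.2% called, against 52% of all tested genes), with a median of -0.07. The largest rises were those of CHTF18, a subunit of an alternative clamp loader (0.60 ± 0.08), and MTBP, a partner of the origin-firing factor TICRR (0.57 ± 0.07). CHTF18 transcripts are 69.1% GC and those of MTBP 36.6%. The part of the GC lean of the 500 nM libraries in these rises was not tested. The largest falls were those of POLD4, the small subunit of polymerase delta (-0.83 ± 0.09), and NASP, a histone chaperone (-0.73 ± 0.05). At 150 nM none of the 38 was called by edgeR, where 1.27% of all tested genes were called. Of the 38, 7 had an unadjusted p under 0.05, against 1572 of 15089 tested genes.

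Among 20 genes of G1/S control, 6 rose and 7 fell at 500 nM (65% called, against 52% of all tested genes), with a median of 0.00. CDKN1A, the inhibitor of cyclin-dependent kinases, rose most, by 2.95 ± 0.07, followed by E2F7, a repressor among E2F factors (0.47 ± 0.07). E2F1, an activator of replication genes, rose by 0.22 ± 0.06. Its transcripts are 62.5% GC, and the part of the GC lean in this rise was not tested. CCNA2, the cyclin of S and G2 phase (-0.57 ± 0.06), and SKP2, which directs p27 to degradation (-0.49 ± 0.06), fell most. Of 30 genes of G2 and mitosis, 26 fell and none rose (86.7% called lower, against 25.6% of all tested genes), with a median of -0.58. PLK1 (-1.52 ± 0.07) and CCNB1 (-1.32 ± 0.05) fell most, and the proliferation marker MKI67 fell by -0.56 ± 0.06. Beside these, the 49 replication genes had 9 higher and 17 lower with a median of 0.01 and a range of -0.62 to 0.36. The difference between the lists was not tested. At 150 nM against DMSO, 1 of the 20 was called higher and 1 of the 30 lower, where 1.27% of all tested genes were called. CDKN1A had a mean of 18.5 CPM in DMSO and 40.9 at 150 nM. Libraries did not overlap for 11 of the 30, 10 of them lower at 150 nM, against 13.7% of all tested genes.

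**Figure D5:**
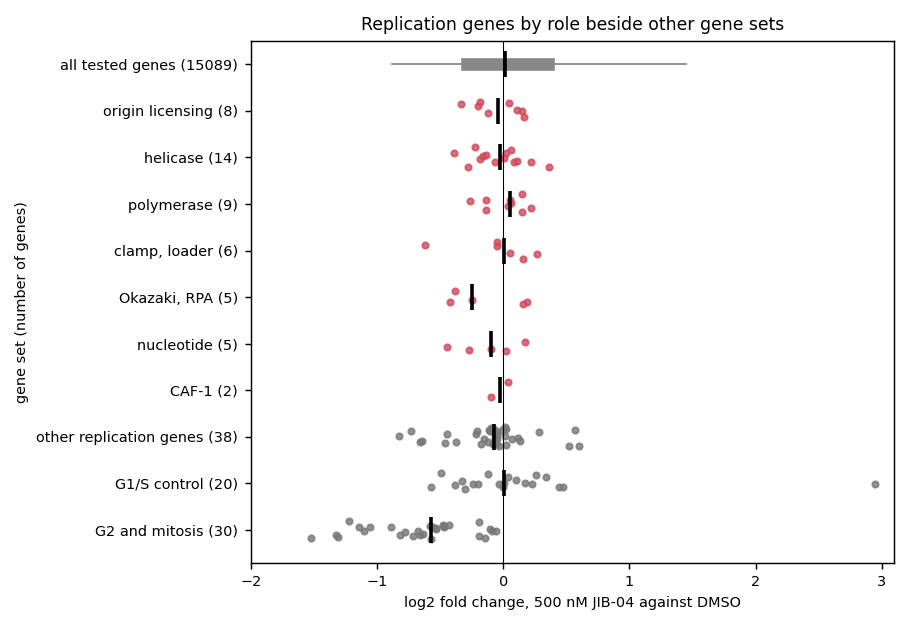
Log2 fold change at 500 nM against DMSO for the 7 roles (red points, 1 per gene) and 3 other gene lists (grey points), with black ticks at the medians. The bar for all tested genes spans the quartiles and its line the 5th to 95th percentiles. Replication genes lie between -0.62 and 0.36 on either side of 0, while the G2 and mitosis genes all lie below 0.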

How the data were processed

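RNA was measured in 9 libraries of the OCI-Ly1 line, 3 each for DMSO, 150 nM and 500 nM JIB-04. The authors deposited 1 table of whole-number read counts per gene symbol. Per the submitters' processing notes, the tools were featureCounts 1.4.6 of Subread, Bowtie2 2.2.6 and TopHat2 2.0.14, and the builds hg19 and mm10 are named without roles. No source used here gives the annotation version or strand setting.

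Low counts were removed by filterByExpr, at a minimum count of 10 and total of 15. The rest were scaled by TMM and tested with edgeR's quasi-likelihood test (edgeR 4.0.16, limma 3.58.1, R 4.3.3) in 1 robust fit to all 9 libraries. P-values were adjusted by Benjamini-Hochberg over 15089 genes, and called means an adjusted p under 0.05. The SE is the log2 fold change divided by the square root of the test's F. Scripts were tested on simulated counts. Of 50 genes changed 1.25-fold there, 56% were called at 150 nM against DMSO and 46% at 500 nM. At 1.5-fold the shares were 86% and 90%. Among the simulated calls, 15 of 186 and 14 of 181 were of unchanged genes. The simulation for 500 nM had 181 calls, against 7843 in the data, so its shares may differ from those in the data. Between libraries of a group, counts differed by more than sampling noise (chi-square per degree of freedom 6.59 to 16.0), so all were kept separate. Library totals limit precision through counting error only.

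The members and lists were chosen with earlier results of these data known. Values in every library are given for 11 fixed genes and for the called gene with the largest rise and fall in each role and comparison. The rule for promoters also covered origin licensing and nucleotide supply, and only the pairs of 1 complex were printed. Lengths and GC content come from the longest protein-coding transcript in GENCODE 29, found for 100% of the 49 genes and 95.5% of tested genes. Promoter windows were matched by symbol to RefSeq. Their coordinates are in GRCh38.p14 and none was taken from the count table. Alternatives were DESeq2 1.42.0, limma-voom, other scalings and filters, the 6 libraries compared only, a replicate block, GC and length trends removed, thinning, and each library left out.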

Additional observations from a re-analysis of the deposited data

How the results depend on the processing

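At 500 nM against DMSO, 11 of the 26 calls stayed called in all 21 alternatives and 15 were lost in at least 1. Scaling by total counts gave 25 higher and 7 lower genes with a median of 0.14 on the log2 scale, and put MCM4 (0.00458) and POLD2 (0.00466) above 0. Over all tested genes that scaling gave 5716 higher and 2514 lower. Against 150 nM it gave 20 higher, 10 lower, a median of 0.11 and MCM7 at 0.00847, and for 150 nM against DMSO a median of 0.0306. With GC trends removed, 14 genes were higher at 500 nM than in DMSO, against 4266 of 15089 tested genes, and the median was -0.0276. POLD1 was then at -0.14 (adjusted p = 0.00339), and against 150 nM at -0.10 (adjusted p = 0.0402), where CDT1 was at -0.0149. For 150 nM against DMSO, the count over all genes was 192, and 291 by DESeq2, 320 without a filter, 101 from the 6 libraries alone and 359 with GC trends removed. The median of the 49 was 0.0265 without a filter. For 500 nM against 150 nM it was -0.0299 without a filter, -0.00422 with 1 CPM in 3 libraries and -0.031 with length trends removed.

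Leaving out each library in turn gave 98 to 545 genes called over all genes at 150 nM (107 without DMSO replicate 2, 98 without 150 nM replicate 2, 545 without 150 nM replicate 1) and 0 to 2 members higher, with medians of 0.0055 to 0.0294. At 500 nM against DMSO it gave 5 to 11 members higher and medians of -0.0182 to 0.0184, with 7053 to 8230 called over all genes. Against 150 nM it gave 4 to 8 members higher and medians of -0.0335 to 0.00456, with 6062 to 7199 called over all genes. The cause of these differences was not tested. Deviations of same-numbered libraries correlated at -0.0525 to 0.104 and those of other numbers at -0.0829 to 0.0352. Of the 9 libraries, 5 correlated best with their own number. Between DMSO and 150 nM, same-numbered libraries correlated at 0.104, 0.0126 and 0.0699, and others at -0.0829 to 0.00814. Whether replicate numbers pair the libraries was not tested, and the main fit used no pairing. With the replicate number as a block, 308 genes were called over all genes at 150 nM. At 500 nM against DMSO that block gave 11 members higher and 18 lower, with 8133 called over all genes. At 500 nM against DMSO the SE of the log2 fold change ran from 0.04 to 0.13 over the 49 genes, widest for TYMS, the gene with the fewest counts.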
